A study of Mus musculus with 8 samples.

Results

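The genes described here were the 9 histone variant genes that lie outside the Hist gene clusters and do not encode H3.3, taken by symbol from the 55418 genes of the count tables. They were H2afz and H2afv, which encode the H2A.Z proteins, H2afx for H2A.X, H2afj for H2A.J, H2afy and H2afy2 for the macroH2A proteins, H1f0 and H1fx for replacement linker histones, and Cenpa for the centromeric H3 variant. All 9 were found, and all 9 had enough counts to be tested in each of 6 comparisons. The cells were E14 mouse ESCs, whose strain the labels spell 12910la, kept without feeders on gelatin in serum with LIF. The 4 groups of 2 libraries were control ESCs, labelled wild type, and ESCs depleted of Hira, of Ubn1 or of Ubn2. Every group shared the same culture, and the labels give 1 protocol of 1000 ng of pSuper puro plasmid, then 1 µg/ml puromycin from 24 h onward for 3 days. According to its methods, the study used a luciferase shRNA in control cells, which the labels do not state. The depleted cells were selected pools of transfected cells rather than clones, and each depletion left part of the target mRNA in place.

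Canonical histones are made in S phase from clustered genes and enter chromatin behind the replication fork, whereas replacement variants are also made outside that window and are exchanged into chromatin by dedicated chaperones. HIRA, with its partners UBN1 and UBN2, is such a chaperone and handles H3.3. The variants here use other routes, such as SRCAP and EP400 for H2A.Z and HJURP for CENP-A, and the counts ask whether their mRNA levels moved when the H3.3 chaperone was depleted.

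Total counts per library ranged from 19710040 to 32706053. The targets were lower in their own depletion, Hira by -3.22 on the log2 scale (standard error 0.10, edgeR adjusted p = 5.57e-15), Ubn1 by -1.03 (0.12, adjusted p = 4.02e-07) and Ubn2 by -0.90 (0.10, adjusted p = 7.2e-07). The spread within a group exceeded counting noise, the chi-square per degree of freedom being 6.3 in controls and 14.2 for Ubn2 depletion. Nothing states that the 2 libraries of a group came from separate cultures, so p-values measure the spread between these libraries, which may be technical. A permutation test of 2 libraries against 2 cannot give p under 0.333, so every test below is the edgeR quasi-likelihood test, with adjusted p over all genes tested by the Benjamini-Hochberg method. A gene that rose or fell had an adjusted p under 0.05, and a called gene also had a fold change over 1.5, the threshold of the study.

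H2afz was by far the most abundant of the 9 mRNAs. In control libraries it reached 1135 and 1173 counts scaled to library size (CPM), against 32.9 and 42.4 CPM for H1fx and 33.4 and 36.4 CPM for H2afy2. Divided by the longest coding transcript in GENCODE, the control levels were 1080 ± 25 CPM per kb for H2afz and 268 ± 44.6 for H2afx (SD, n = 2 each). Cenpa (96.8 ± 7.96) and H2afv (92.4 ± 5.68) followed with overlapping ranges, as did H2afy (67.8 ± 3.64) and H1f0 (62.6 ± 13.5). H2afj (46.9 ± 4.85), H1fx (30.9 ± 5.48) and H2afy2 (16 ± 0.973) came last, and their 2 library values did not overlap with one another (all in CPM per kb, SD, n = 2). Over all annotated exons instead, Cenpa had 24.2 and H2afy 20.4 CPM per kb, which put both between H1fx and H2afy2. The 9 genes together held 2156 and 2332 CPM in controls, 2005 and 2082 in Hira-depleted, 2040 and 2301 in Ubn1-depleted and 2278 and 2289 in Ubn2-depleted libraries.

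**Figure D1:**
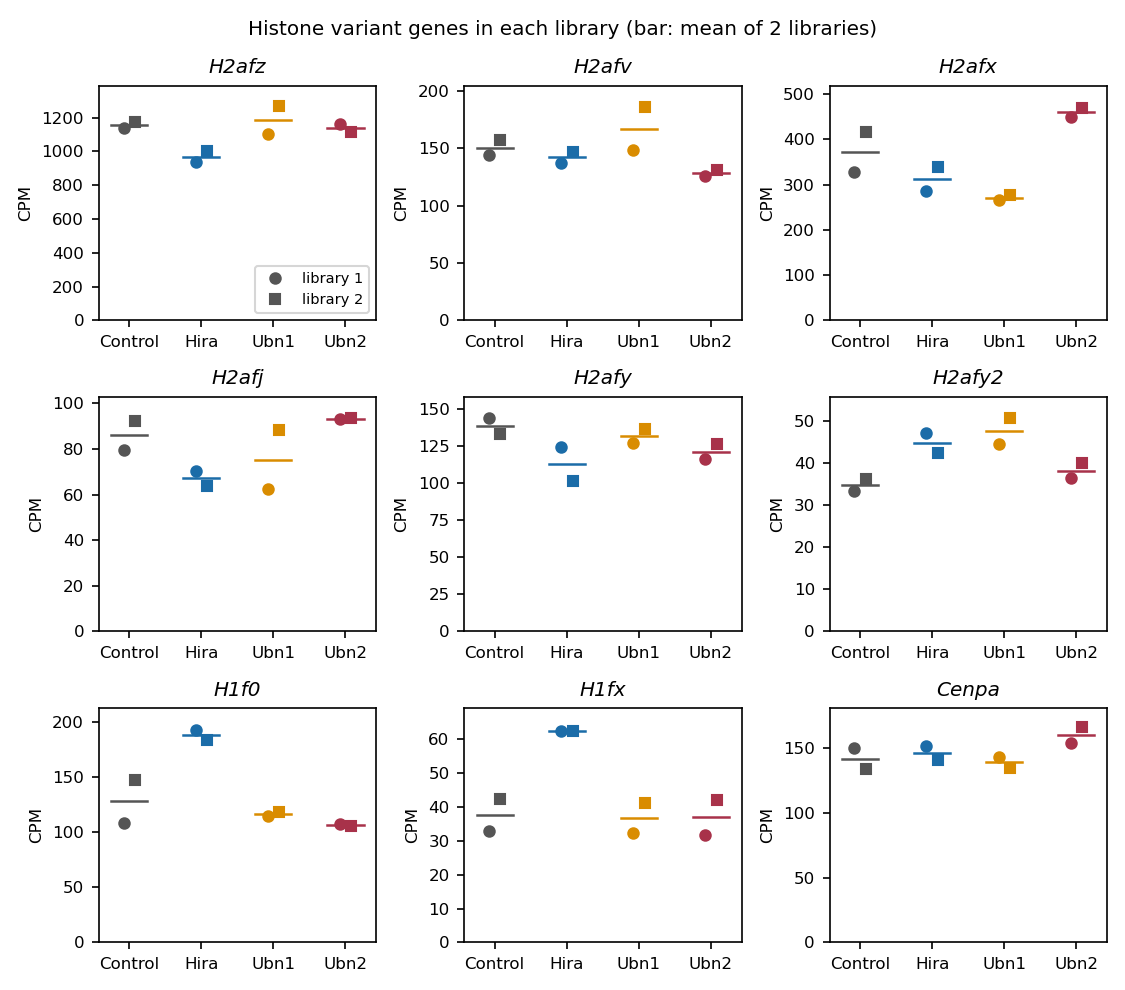
CPM (vertical axes, from 0) of each of the 9 histone variant genes in control, Hira-depleted, Ubn1-depleted and Ubn2-depleted libraries, with a circle for library 1, a square for library 2 and a bar at their mean. H1f0 and H1fx stand highest in the 2 Hira-depleted libraries, H2afx is highest in the 2 Ubn2-depleted and lowest in the 2 Ubn1-depleted libraries, and H2afy2 lies above both controls in all 6 depleted libraries.

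After Hira depletion 3 of the 9 genes rose (H1fx, H1f0 and H2afy2) and 4 fell (H2afj, H2afy, H2afz and H2afx). Among all 19035 genes tested, 17.6% rose and 17.3% fell. Only H1fx was called with the fold threshold, where 16.2% of all genes were called in either direction. The median log2 fold change of the 9 genes was -0.11, against 0.01 for all genes. In bulk RNA, a change in the share of cells that make an mRNA and a change in the amount per cell cannot be told apart.

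The linker histones gave the largest differences. H1fx, on chromosome 6 of GRCm38 from 87980421 to 87981637, is an intronless gene for a replication-independent linker histone, and Gm5577 on the opposite strand shares 213 of its exon bases. It had 32.9 and 42.4 CPM in controls, 62.6 and 62.4 in Hira-depleted, 32.4 and 41.2 in Ubn1-depleted and 31.8 and 42.1 in Ubn2-depleted libraries. Both Hira-depleted libraries stood above every other library, while the other 3 groups overlapped. Its log2 fold change after Hira depletion was 0.71 (standard error 0.10, 95% interval 0.49 to 0.92, edgeR adjusted p = 1.97e-05), or 1.63-fold. The value was 0.54 without control library 1, which is under the fold threshold, and 0.90 without control library 2, with an adjusted p of at most 5.95e-05 in each fit without 1 library. After Ubn1 depletion it was -0.04 (95% interval -0.29 to 0.21) and after Ubn2 depletion -0.04 (-0.30 to 0.22), neither past the test.

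H1f0, on chromosome 15 from 79028450 to 79030504, encodes the linker histone that accumulates in cells that stop dividing or differentiate, and shares 163 exon bases with Gm49544 on the opposite strand. It had 109 and 148 CPM in controls and 193 and 184 CPM after Hira depletion, so the 2 groups did not overlap. After Ubn1 depletion it had 115 and 119 CPM, and after Ubn2 depletion 108 and 106 CPM. The rise after Hira depletion was 0.53 on the log2 scale (standard error 0.10, edgeR adjusted p = 0.000342), under the fold threshold, and the fall after Ubn2 depletion was -0.28 (0.10, adjusted p = 0.0258). The 2 controls lay 30.6% of their mean apart, the widest gap between libraries of H1f0 in any group. Without control library 1 the value after Hira depletion was 0.32 (adjusted p = 0.016) and without control library 2 it was 0.77 (4.14e-10). DESeq2's Wald test gave an adjusted p of 0.0592 for the rise. For Ubn2 depletion the value was -0.48 without control library 1 and -0.03 (adjusted p = 0.805) without control library 2, and DESeq2 gave an adjusted p of 0.386, so that fall rests on control library 2.

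H1f0 and H1fx were also compared between the depletions. Such a difference does not use the controls, and it does not test a rise from them. H1fx was higher after Hira than after Ubn2 depletion by 0.77 (standard error 0.11, adjusted p = 0.000104) and than after Ubn1 depletion by 0.77 (0.11, adjusted p = 1.31e-05). For H1f0 the differences were 0.83 (0.07, adjusted p = 1.25e-06) and 0.69 (0.10, adjusted p = 7.94e-06). Both genes were thus called in both comparisons, and no other of the 9 genes was called in either. The comparisons share the Hira-depleted libraries, so they are not repeats of each other. Leaving out single libraries kept H1f0 between 0.79 and 0.86 against Ubn2 depletion and between 0.64 and 0.72 against Ubn1 depletion. The ranges of H1fx were wider, 0.57 to 0.98 and 0.59 to 0.95, and without Ubn2-depleted library 1 the difference of H1fx from Ubn2 depletion fell under the fold threshold. Of all genes, 17.6% of 18563 were called between Hira and Ubn2 depletion and 12.7% of 18819 between Hira and Ubn1 depletion.

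The profile of H1fx over the 8 libraries was compared with those of all 10357 genes at a mean of 10 CPM or more. Among the closest were Evl, a regulator of actin filaments (Pearson r = 0.987 on log2 CPM over 8 libraries), and B4galt2, a galactosyltransferase (r = 0.984). These are descriptive values over 8 libraries that fall into 4 groups. Evl had 28.3 and 31.7 CPM in controls and 35.5 and 36.4 CPM after Hira depletion. Both H1fx and Evl were lower in library 1 than in library 2 of the control, Ubn1-depleted and Ubn2-depleted groups.

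H2afx moved in opposite directions in the 2 ubinuclein depletions. It lies on chromosome 9 from 44334694 to 44336077 and encodes H2A.X, the variant phosphorylated around DNA breaks. Its mRNA exists in both a stem-loop and a polyadenylated form. An mRNA kit that selects poly(A) tails would capture the second, and the counts do not separate these forms. Gm44335 on the opposite strand shares 141 of its exon bases, and 18 genes in all share a near-identical stretch of at least 100 bases with it. The libraries held 327 and 415 CPM in controls, 285 and 339 in Hira-depleted, 265 and 277 in Ubn1-depleted and 450 and 469 in Ubn2-depleted libraries. Ubn1-depleted libraries were below both controls and Ubn2-depleted libraries above both, whereas Hira-depleted libraries overlapped with the controls.

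The log2 fold change of H2afx was -0.46 after Ubn1 depletion (standard error 0.10, edgeR adjusted p = 0.00329), 0.31 after Ubn2 depletion (0.09, adjusted p = 0.00787) and -0.27 after Hira depletion (0.10, adjusted p = 0.0362). Each of these depended on single libraries. The Ubn1 value was -0.61 without control library 1, past the fold threshold. Without control library 2 it was -0.28 (adjusted p = 0.345) and the Hira value -0.09 (0.6), without Hira-depleted library 1 the Hira value was -0.15 (0.188), and without control library 1 the Ubn2 value was 0.14 (0.263). The Hira value was -0.43 without control library 1, and the Ubn2 value 0.49 without control library 2. The Hira and Ubn2 changes also missed the threshold in DESeq2, with adjusted p of 0.367 and 0.164, and the Hira change with all 8 libraries in 1 fit (0.0622). The direct difference did not use the controls. H2afx was higher after Ubn2 than after Ubn1 depletion by 0.76 (standard error 0.09, 95% interval 0.57 to 0.96, adjusted p = 2.78e-05), a 1.69-fold difference that stayed between 0.73 and 0.79 without single libraries. It was the only one of the 9 genes called in that comparison, in which 8.70% of 18205 genes were called.

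H2afx was lower after Hira than after Ubn2 depletion by a log2 difference of -0.55 (standard error 0.09, adjusted p = 0.000258), just under the fold threshold. It was past that threshold without Hira-depleted library 2 (-0.68) or Ubn2-depleted library 1 (-0.59). Between Hira and Ubn1 depletion the difference was 0.21 (95% interval -0.00 to 0.43), which did not pass the test. Among the 6 H2A variant genes, scaled per kb of coding transcript, H2afx held 15.6% and 18.4% in controls, 20.2% and 21.3% after Ubn2 depletion, and 13.4% and 12.2% after Ubn1 depletion. The share of H2afz was 70% and 67.5% in controls and stayed between 65.4% and 72.4% in the depleted libraries.

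The macroH2A genes moved apart after Hira depletion. MacroH2A carries a large non-histone domain, and the variants encoded by H2afy (chromosome 13, 56073619 to 56136361) and H2afy2 (chromosome 10, 61738665 to 61784147) are known in repressed chromatin such as the inactive X chromosome. Exons of Gm47071 (501 bases) and Aifm2 (233 bases) overlap them on the opposite strand. H2afy2 had 33.4 and 36.4 CPM in controls, 47.2 and 42.5 in Hira-depleted, 44.5 and 50.8 in Ubn1-depleted and 36.5 and 40 in Ubn2-depleted libraries. All 6 depleted libraries were above both controls. It rose by 0.35 after Hira depletion (standard error 0.10, adjusted p = 0.00902) and by 0.45 after Ubn1 depletion (0.11, adjusted p = 0.00865), while its value for Ubn2 depletion was 0.13 (95% interval -0.08 to 0.33), which did not pass the test.

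H2afy had 144 and 133 CPM in controls, 124 and 101 in Hira-depleted, 127 and 136 in Ubn1-depleted and 116 and 126 in Ubn2-depleted libraries. Its log2 value after Hira depletion was -0.32 (standard error 0.09, adjusted p = 0.00881) and after Ubn2 depletion -0.20 (0.07, adjusted p = 0.028). The counts are per gene, so the splice forms of H2afy were not separated. The reads of H2afy2 came to 23.2% and 27.2% of those of H2afy in controls, 38.1% and 42.1% in Hira-depleted, 35.1% and 37.3% in Ubn1-depleted and 31.5% and 31.7% in Ubn2-depleted libraries. This ratio within a library was higher in all 6 depleted libraries than in either control, and the ratio itself was not tested.

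All these macroH2A changes lost the threshold in at least 1 fit without a single library. For H2afy2 the adjusted p was 0.0784 without control library 1 and 0.0972 without Hira-depleted library 1 in the Hira comparison, and 0.177 without control library 1 and 0.0566 without Ubn1-depleted library 2 in the Ubn1 comparison. For H2afy the Hira value was -0.18 (adjusted p = 0.128) without Hira-depleted library 2 and -0.48 (1.01e-05) without Hira-depleted library 1. For H2afy after Ubn2 depletion the adjusted p was 0.158 without control library 1, 0.275 without Ubn2-depleted library 1, 0.0736 in DESeq2 and 0.107 with all 8 libraries in 1 fit.

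H2afz fell after Hira depletion and H2afv after Ubn2 depletion. H2A.Z marks promoters and enhancers, and both of its genes are spliced, H2afz on chromosome 3 from 137864487 to 137866922 and H2afv on chromosome 11 from 6427229 to 6444443. H2afz had 1135 and 1173 CPM in controls, 934 and 1001 in Hira-depleted, 1102 and 1267 in Ubn1-depleted and 1162 and 1115 in Ubn2-depleted libraries. The Hira-depleted libraries were below every other library. The log2 fold change after Hira depletion was -0.27 (standard error 0.07, adjusted p = 0.00703), with an adjusted p of 0.0983 without control library 2. After Ubn1 and Ubn2 depletion it was 0.04 (95% interval -0.16 to 0.23) and -0.02 (-0.16 to 0.12).

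H2afv had 144 and 157 CPM in controls and 126 and 131 CPM after Ubn2 depletion, with no overlap. Its values were 137 and 147 CPM after Hira depletion and 148 and 186 CPM after Ubn1 depletion. The fall after Ubn2 depletion was -0.23 (standard error 0.07, adjusted p = 0.00954), and the values after Hira (-0.11, 95% interval -0.27 to 0.05) and Ubn1 depletion (0.14, -0.06 to 0.34) did not pass the test. Without Ubn1-depleted library 1 the Ubn1 value was 0.29 (adjusted p = 0.0198). The direct difference of H2afv between Hira and Ubn2 depletion was 0.15 (95% interval -0.00 to 0.30, adjusted p = 0.116). The Ubn2 value against control had an adjusted p of up to 0.102 without single libraries, and missed the threshold without control library 2 or Ubn2-depleted library 1 and with all 8 libraries in 1 fit (adjusted p = 0.0619). H2afv reads came to 10.8% and 11.8% of H2afz reads after Ubn2 depletion and to between 12.7% and 14.7% in the other 6 libraries.

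H2afj, on chromosome 6 from 136808244 to 136810074, encodes an H2A variant known to accumulate in senescent cells, and shares 141 exon bases with Gm44364 on the opposite strand and a near-identical stretch with 21 genes in all. It had 79.7 and 92.2 CPM in controls, 70.2 and 63.9 in Hira-depleted, 62.6 and 88.1 in Ubn1-depleted and 92.9 and 93.6 in Ubn2-depleted libraries. Hira-depleted libraries were below both controls, and the Ubn1-depleted libraries were the widest apart, by 33.8% of their mean. H2afj fell by -0.37 on the log2 scale after Hira depletion (standard error 0.09, adjusted p = 0.0021), with an adjusted p of 0.0537 without control library 2. It was lower after Hira than after Ubn2 depletion by -0.47 (0.08, adjusted p = 0.00034). After Ubn1 depletion the value was -0.19 (95% interval -0.42 to 0.04), and it passed the test without Ubn1-depleted library 2 (-0.46, adjusted p = 0.000562).

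Cenpa, on chromosome 5 from 30666777 to 30674830, did not pass the main test in any of the 6 comparisons. CENP-A replaces H3 in centromeric nucleosomes and is loaded after mitosis. Its levels were 150 and 134 CPM in controls, 152 and 141 in Hira-depleted, 143 and 135 in Ubn1-depleted and 154 and 166 in Ubn2-depleted libraries. Ubn2-depleted libraries were above both controls, with a log2 fold change of 0.18 (95% interval 0.03 to 0.33, adjusted p = 0.0568). That value passed the test without control library 1 (0.26, adjusted p = 0.0141) or Ubn2-depleted library 1 (0.23, adjusted p = 0.0355), with at least 10 counts required in every library (0.18, adjusted p = 0.0464) and with the replicate number as a block (0.18, adjusted p = 0.0363). Stretches of at least 100 bases at 95% identity are shared between Cenpa transcripts and those of 93 other genes. The intervals were -0.13 to 0.20 after Hira depletion and -0.22 to 0.16 after Ubn1 depletion, so changes of 1.5-fold lay outside all 3.

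**Figure D2:**
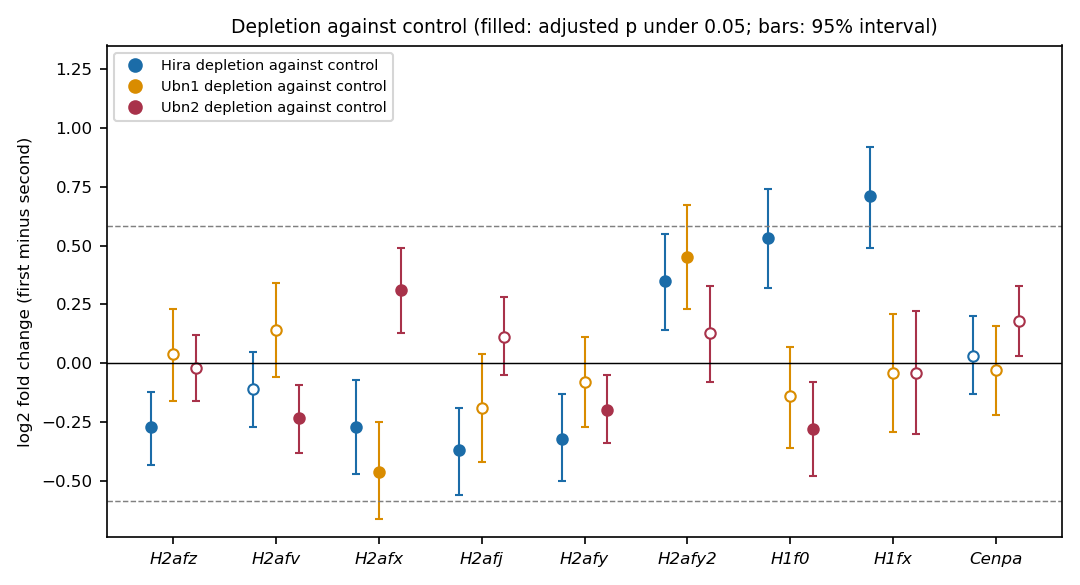
Log2 fold change against control (vertical axis) of the 9 genes after Hira, Ubn1 and Ubn2 depletion, with 95% intervals, filled points for an adjusted p under 0.05 and dashed lines at a fold change of 1.5. H1fx after Hira depletion (0.71) is the only point beyond a dashed line, and H2afx lies below 0 after Ubn1 depletion (-0.46) and above 0 after Ubn2 depletion (0.31).

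Over the 9 genes, Ubn1 depletion moved 2, with H2afy2 higher and H2afx lower, where 4.14% of 18373 genes rose and 3.62% fell. Ubn2 depletion moved 4, with H2afx higher and H2afv, H2afy and H1f0 lower, where 20.0% of 18219 genes rose and 19.1% fell. None of the 9 was called with the fold threshold in either, against 3.09% of all genes after Ubn1 and 18.3% after Ubn2 depletion. DESeq2 also called 0 of the 9 in these 2 comparisons. The medians over the 9 genes were -0.04 and -0.02, against -0.00 for all genes in both. The 3 depletions share the control libraries, so their values are set side by side and not counted as repeats of each other.

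Between the depletions, 5 of the 9 genes differed between Hira and Ubn2 at an adjusted p under 0.05 (35.8% of all genes did), namely H1f0 and H1fx higher and H2afz, H2afx and H2afj lower after Hira depletion. The difference of H2afz was -0.23 (standard error 0.08, adjusted p = 0.035), and missed the threshold without Hira-depleted library 1 or either Ubn2-depleted library (adjusted p from 0.0888 to 0.219). H2afy (-0.10, adjusted p = 0.446) and H2afy2 (0.24, adjusted p = 0.062) did not pass the main test between Hira and Ubn2. The value of H2afy was -0.26 without Hira-depleted library 1, and that of H2afy2 was 0.31 without Hira-depleted library 2. H2afy2 passed with at least 10 counts required in every library (0.25, adjusted p = 0.0481). Between Hira and Ubn1, H1f0 and H1fx differed (24.3% of all genes did). H2afz did not pass the main test there (-0.28, adjusted p = 0.0652). It also missed with DESeq2 size factors (0.0592), at least 10 counts per library (0.0824) and the replicate block (0.0919). It passed in DESeq2 (-0.31, adjusted p = 0.0206), with no filter (-0.30, 0.0189) and with all 8 libraries in 1 fit (-0.29, 0.0166). Without Ubn1-depleted library 1 the values were -0.41 for H2afz, -0.40 for H2afv, -0.29 for H2afy and -0.41 for H2afj. With all libraries they were -0.28, -0.23, -0.22 and -0.16, and none passed. Between Ubn2 and Ubn1, H2afx was higher after Ubn2 depletion and H2afv (-0.38, standard error 0.10, adjusted p = 0.0164) and H2afy2 (-0.32, 0.11, adjusted p = 0.0464) were lower, where 16.6% of all genes differed. H2afv and H2afy2 missed the threshold there without Ubn1-depleted library 2 or either Ubn2-depleted library, with adjusted p up to 0.138 and 0.369, and the value of H2afv was -0.21 without Ubn1-depleted library 2. DESeq2 gave H2afy2 an adjusted p of 0.0927. Between Ubn2 and Ubn1, H2afj did not pass the main test (0.30, adjusted p = 0.0954) or DESeq2 (0.30, 0.166). It passed with no filter (0.31, 0.017) and with the replicate block (0.32, 0.0185). Its value was 0.57 without Ubn1-depleted library 2. Cenpa did not pass the main test there (0.20, adjusted p = 0.122), and its value was 0.24 without Ubn1-depleted library 1.

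**Figure D3:**
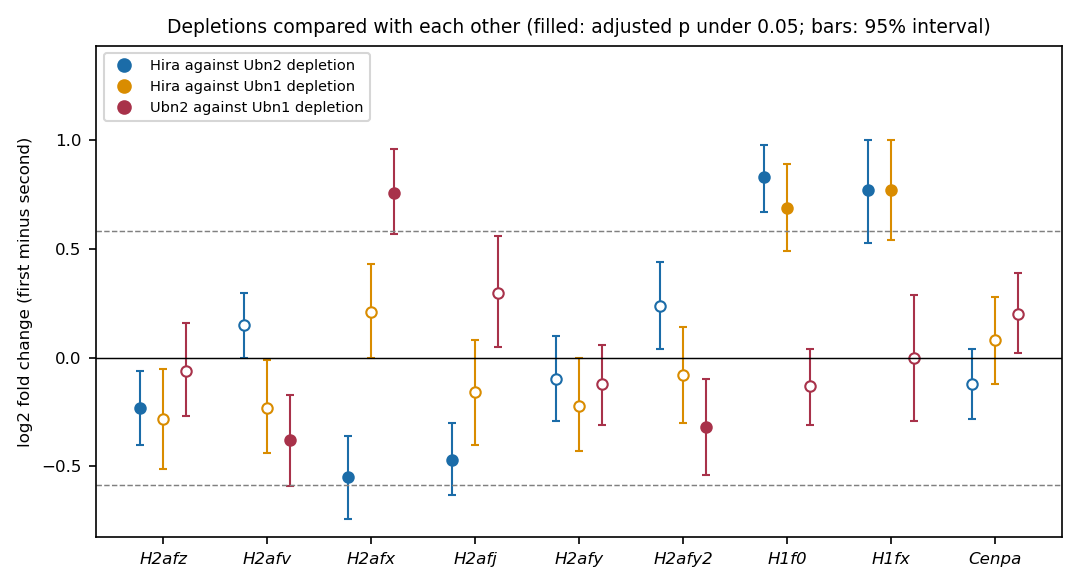
Log2 fold change (vertical axis) of the 9 genes in the 3 direct comparisons of depletions, first named minus second named, with 95% intervals, filled points for an adjusted p under 0.05 and dashed lines at a fold change of 1.5. H1f0 and H1fx lie above the upper dashed line in both comparisons of Hira depletion, and H2afx lies above it between Ubn2 and Ubn1 depletion (0.76).

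Promoter sequences are printed for the linker histone pair, H1f0 and H1fx, and for the H2A.Z pair, H2afz and H2afv. These pairs were picked after their changes were seen. RefSeq (GRCm38.p6) gave a 300-base window around the start for 8 of the 9 genes. The sequences below are the parts upstream of both the RefSeq and the GENCODE start, read along the gene, with the letters CCAAT or their reverse complement ATTGG in capitals. CCAAT is the core bound by NF-Y, a factor of many cell cycle and histone promoters. H1f0 is at chr15:79027962-79028211 on the plus strand, H1fx at chr6:87981638-87981732 on the minus strand, H2afz at chr3:137864237-137864486 on the plus strand and H2afv at chr11:6444444-6444693 on the minus strand.
H1f0: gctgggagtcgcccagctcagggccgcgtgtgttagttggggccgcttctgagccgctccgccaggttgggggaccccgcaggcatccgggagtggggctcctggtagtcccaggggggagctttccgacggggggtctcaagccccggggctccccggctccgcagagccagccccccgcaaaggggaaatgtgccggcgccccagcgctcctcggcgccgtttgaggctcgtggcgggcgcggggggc
H1fx: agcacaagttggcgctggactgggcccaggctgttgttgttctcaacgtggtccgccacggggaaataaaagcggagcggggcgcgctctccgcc
H2afz: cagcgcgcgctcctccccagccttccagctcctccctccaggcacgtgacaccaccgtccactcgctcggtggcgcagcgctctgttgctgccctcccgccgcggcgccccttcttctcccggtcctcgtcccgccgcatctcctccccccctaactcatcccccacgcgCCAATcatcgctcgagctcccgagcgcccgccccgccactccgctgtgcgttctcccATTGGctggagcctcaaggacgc
H2afv: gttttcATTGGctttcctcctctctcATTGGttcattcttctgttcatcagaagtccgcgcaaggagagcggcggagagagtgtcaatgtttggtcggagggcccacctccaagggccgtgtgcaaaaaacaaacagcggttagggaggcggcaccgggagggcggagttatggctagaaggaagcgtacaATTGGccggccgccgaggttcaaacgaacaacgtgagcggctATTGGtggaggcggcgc

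CCAAT was searched on both strands of the whole windows. It occurred 4 times in H2afv, 3 times each in H2afz and H2afj, 2 times in Cenpa and 1 time in H2afy2. It occurred 0 times in H1f0, H1fx and H2afy. The windows differ in how many bases lie upstream of both starts. These were 250 for H2afz, H2afv and H1f0, 246 for H2afj, 141 for Cenpa, 95 for H1fx, and 0 for H2afy and H2afy2. The upstream bases of Cenpa held no match, so the counts are not of like stretches. CCAAT was in 37.9% of 27025 mouse promoter windows of the same length. TATAAA was in none of the 8 windows and in 14.2% of all windows, and GGGCGG was in 7 of the 8, all but H2afy2, and in 35.9% of all windows. The windows of H1f0 and H1fx were 75% and 77.7% G and C, against a median of 52.7% over all promoters. These are matches of letters and not tests of binding, and a link between them and the changes after depletion was not tested.

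The genes that act with the variants were counted by the same test. Their lists were taken from general knowledge, but chosen with earlier results of these data known. The shares of all genes that rose and fell, against which these counts are read, were 17.6% and 17.3% for Hira, 4.14% and 3.62% for Ubn1, and 20.0% and 19.1% for Ubn2. The lists overlap, since Ssrp1 and Supt16 are in both the H2A.X and the macroH2A list, and Npm1 is in both the CENP-A and the linker histone chaperone list. Of 12 H2A.X kinases and readers, 8 fell and 1 rose after Hira depletion, with a median of -0.35, and Prkdc (-0.76, standard error 0.09, adjusted p = 1.68e-06) and Atm (-0.65, 0.09, adjusted p = 8.72e-06), kinases that phosphorylate H2A.X, were called. The same list had 0 up and 1 down after Ubn1 depletion and 1 up and 3 down after Ubn2 depletion. The kinase gene Atr was called after Ubn2 depletion (-0.59, standard error 0.08, adjusted p = 7.6e-06). Under the fold threshold, Atr also fell after Hira (-0.28, adjusted p = 0.0101) and Ubn1 depletion (-0.31, adjusted p = 0.0414). Of 6 macroH2A regulators and partners, 5 fell after Hira depletion, with a median of -0.42, and Hells, a remodeller of the SNF2 family, was called (-1.28, 0.08, adjusted p = 2.79e-10). Ssrp1 (-0.45) and Supt16 (-0.41) are among the falls of both lists. In that list 2 fell after Ubn2 depletion and 0 changed after Ubn1 depletion.

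Of 14 genes for H2A.Z deposition and removal, 3 fell and 1 rose after Hira depletion, 0 changed after Ubn1 depletion and 3 rose and 1 fell after Ubn2 depletion, near or under the shares over all genes. Ruvbl2, an ATPase of SRCAP, EP400 and INO80, was the only one called (-0.63 after Hira depletion, standard error 0.07, adjusted p = 1.81e-06). It also fell after Ubn2 depletion, under the fold threshold (-0.38, adjusted p = 0.000291). Of 17 genes for CENP-A deposition and the centromere, 3 rose and 6 fell after Hira depletion, 2 rose and 1 fell after Ubn1 depletion, and 3 rose and 3 fell after Ubn2 depletion. Cenpb, which binds a motif in centromeric repeats, was called after Ubn1 (0.61, 0.09, adjusted p = 4.97e-05) and Ubn2 depletion (0.72, 0.07, adjusted p = 1.38e-07). Cenpm, a centromere protein, was called after Ubn2 depletion (1.01, 0.08, adjusted p = 9.71e-09). Under the fold threshold, Cenpb also rose after Hira depletion (0.45, adjusted p = 0.000114). Cenpm did so after Hira (0.29, adjusted p = 0.0193) and Ubn1 depletion (0.40, adjusted p = 0.0162). Of 4 linker histone chaperones, 3 fell after Hira depletion, 2 after Ubn2 depletion and 0 after Ubn1 depletion, and none rose or was called, while the linker histones themselves rose after Hira depletion.

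Cell cycle genes moved beside the variants. Of 16 S phase genes, 14 fell and 1 rose after Hira depletion, with a median of -0.45 and Cdc6 (-0.88), Mcm6 (-0.76) and Pcna (-0.69) called, which load or assist the replication machinery. After Ubn1 depletion 0 changed, and after Ubn2 depletion 4 fell and 1 rose. Of 16 G2 and mitosis genes, 7 fell and 0 rose after Hira depletion, with the mitotic kinase gene Bub1 called (-0.83). After Ubn1 depletion 0 changed. After Ubn2 depletion 5 rose, with Ube2c called (0.71), which encodes a mitotic ubiquitin-conjugating enzyme. The 1 that fell there was Bub1 (-0.41, adjusted p = 0.000192), under the fold threshold. The 2 H3.3 genes, H3f3a and H3f3b, did not pass the test after Hira or Ubn1 depletion, and H3f3b rose by 0.42 after Ubn2 depletion (standard error 0.07, adjusted p = 7.61e-05).

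**Figure D4:**
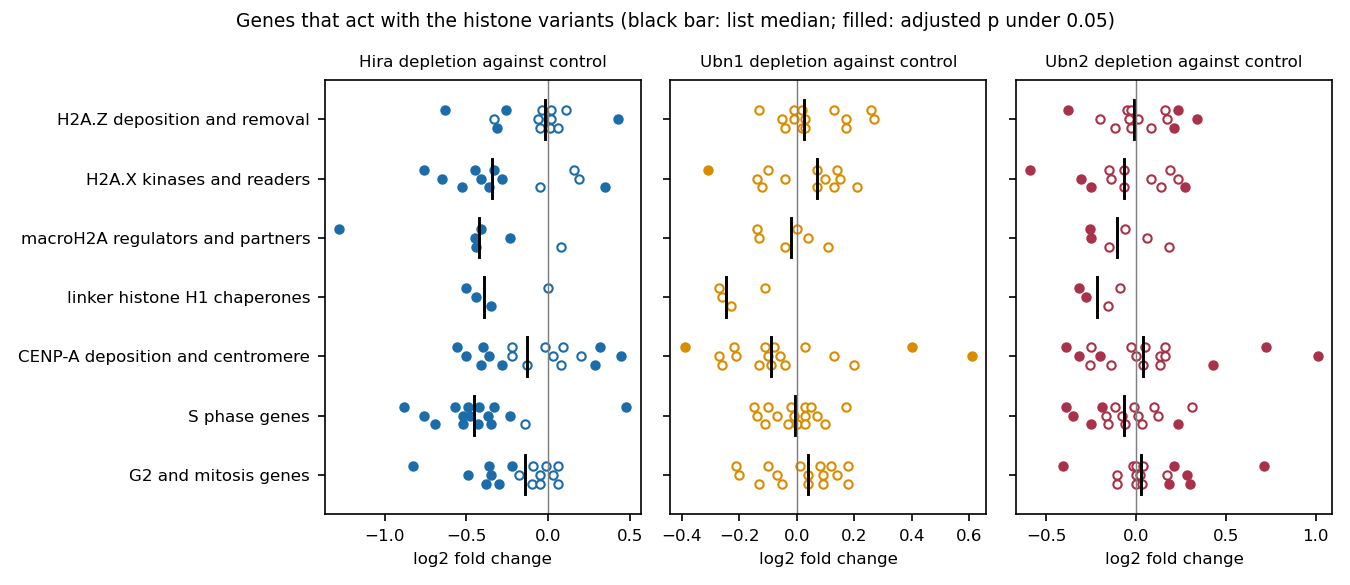
Log2 fold change against control (horizontal axes) of each gene of 7 lists after Hira, Ubn1 and Ubn2 depletion, with filled points for an adjusted p under 0.05 and a black bar at the list median. After Hira depletion the bars of the H2A.X, macroH2A, linker histone chaperone and S phase lists lie between -0.35 and -0.45, and after Ubn1 and Ubn2 depletion every bar lies between -0.25 and 0.07.

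Markers of other cell types moved with some groups. Of 6 neural markers 5 rose after Hira depletion, with a summed level of 304 to 315 CPM against 135 to 141 CPM in controls, and 4 of 5 tested trophoblast markers rose, at 113 to 138 against 71.2 to 72 CPM. After Ubn2 depletion 2 neural markers rose and 2 fell, and 2 of 4 tested trophoblast markers fell. Of 8 heart muscle markers 6 rose and 1 fell (Myl7, -0.95, adjusted p = 0.000921) after Ubn2 depletion, with a summed level of 190 to 301 against 14.4 to 15.2 CPM. All 8 were tested there, against 5 after Hira and 4 after Ubn1 depletion. The filter was run per comparison, so a marker could be tested only because of high counts in the depleted group. That tilts such counts upward. After Ubn1 depletion 1 neural marker rose and 1 trophoblast marker fell, and after Hira depletion 1 heart muscle marker fell. No marker of the neural and trophoblast lists after Hira depletion, or of the heart muscle list after Ubn2 depletion, was at 0 counts. Of 6 primitive endoderm markers 2 rose after Hira depletion, 1 rose and 1 fell after Ubn1 depletion and 0 changed after Ubn2 depletion. Of 3 tested fibroblast markers 2 rose and 1 fell after Hira depletion, and of 5 tested 2 rose and 2 fell after Ubn2 depletion. The 2 that rose after Ubn2 depletion were Col3a1 (10.00), which had 0 counts in controls, and Col1a2 (2.85). Summed ESC markers were 6439 to 6652 CPM in controls. They were 5791 to 5865 after Hira depletion, 5717 to 5822 after Ubn1 depletion and 5391 to 5589 after Ubn2 depletion. Of the 8 ESC markers, 1 rose and 3 fell after Hira depletion, with a median log2 value of -0.08. After Ubn1 depletion 0 rose and 2 fell (median 0.04), and after Ubn2 depletion 1 rose and 3 fell (median -0.11). Whether cells of these other types were present was not tested. Nor was a part of such cells, or of the cell cycle genes, in the changes of H1f0, H1fx and H2afx.

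**Figure D5:**
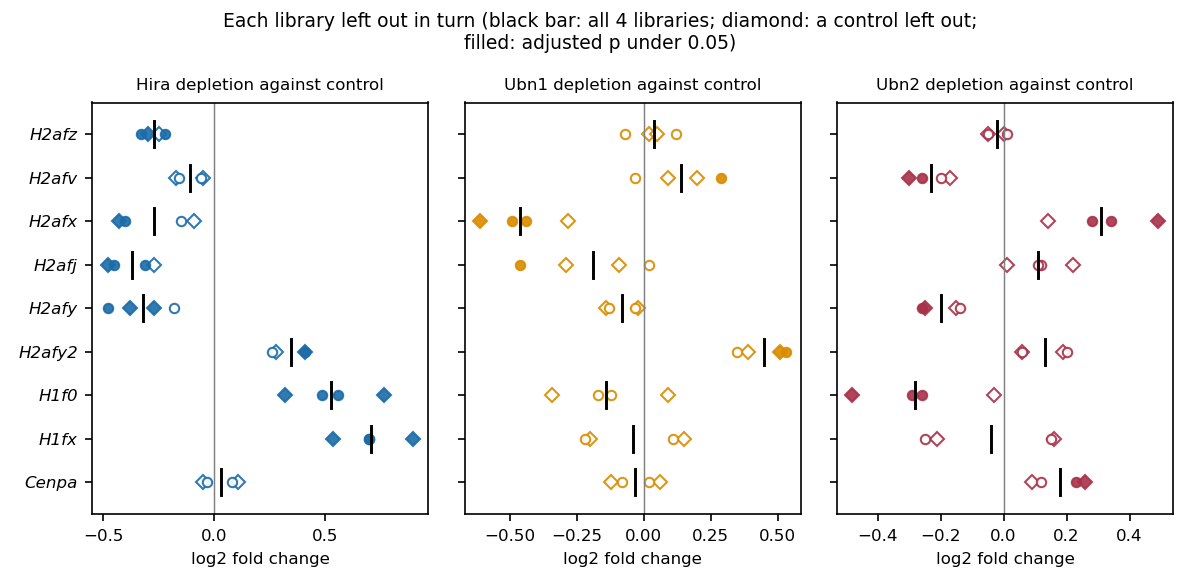
Log2 fold change (horizontal axes) of the 9 genes in fits that leave out 1 library, with a diamond where a control and a circle where a depleted library was left out, filled for an adjusted p under 0.05, and a black bar for all 4 libraries. H1fx stays filled between 0.54 and 0.90 after Hira depletion, whereas H2afx has at least 1 open point in every depletion.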

How the data were processed

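RNA-seq was analysed from 8 libraries of E14 ESCs, 2 per group, grouped by sample title. The authors trimmed reads with Trim Galore, aligned them to GRCm38 with STAR at default settings and deposited raw read counts per Ensembl gene from featureCounts, in 3 tables that repeat the control libraries (0 differing values, used once). Versions, strand setting and handling of multiple hits are not given in the sources used here. Reads from a gene and its antisense partner cannot be told apart without the strand setting.

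Counts were scaled by TMM and tested with edgeR 4.0.16 (R 4.3.3), filterByExpr, quasi-likelihood tests on the 4 libraries compared, and Benjamini-Hochberg adjustment over all genes. CPM use TMM-scaled totals. At 3 counts the floor was at most 0.152 CPM, which covers counting error only. The members and gene lists were chosen with earlier results of these data known. List genes named are up to 3 per depletion with the smallest adjusted p among those called. The 3 profiles most like H1fx were taken by Pearson r on log2 CPM, of which 1 is not reported here. Alternatives were DESeq2 1.42.0, its size factors in edgeR, no filter, a replicate block, 1 fit of all 8 libraries, a minimum of 10 counts per library, adjusted p alone, and fits without single libraries. The models were tested on simulated counts. Positions are from GENCODE M21, promoters from RefSeq, and BLAST 2.17.0 searched transcripts for near-identical stretches of at least 100 bases at 95% identity. Retrotransposons were not analysed here. Python 3.11.15, numpy 2.4.6, pandas 2.3.3 and matplotlib 3.10.9 were used.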

Additional observations from a re-analysis of the deposited data

How the results depend on the processing

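Of the 9 genes, the number called upregulated after Hira depletion (1) ranged from 0 to 2 without single libraries, since H1fx fell under the fold threshold without control library 1 and H1f0 passed it without control library 2. The number called downregulated after Ubn1 depletion (0) ranged from 0 to 1. Between Hira and Ubn2 depletion, 1 to 2 genes were called higher and 0 to 1 lower. With the adjusted p alone, 3 genes rose and 4 fell after Hira depletion, 1 rose and 1 fell after Ubn1 depletion, and 1 rose and 3 fell after Ubn2 depletion. By that rule 3 genes were lower in Hira than in Ubn2 depletion and 2 were lower in Ubn2 than in Ubn1 depletion. A fit without 1 library assumes that the remaining library of that group varies like the others.

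Of 216 fold changes refitted without 1 library, 25 lost the threshold, 12 gained it, and no called value changed sign. DESeq2's Wald test lost 6 and gained 1 of 54, and all 8 libraries in 1 fit lost 3 and gained 1. DESeq2's size factors changed none of the 54, and no filter and the stricter filter each gained 2. Over all genes, Ubn1 depletion gave 282 calls up and 286 down, against 175 and 159 in DESeq2, 172 and 178 without control library 1, and 230 and 183 without control library 2.

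Equal replicate numbers were not shown to pair libraries, since across genes the deviations from the group mean had an r between -0.0521 and 0.0672 for libraries of equal number in the 6 pairs of groups. With the replicate block, 1 gene was called up after Hira depletion, 2 higher in each comparison of Hira with another depletion, and 1 higher in Ubn2 against Ubn1 depletion, as without it. Under the block H2afz lost the threshold between Hira and Ubn2 depletion (-0.23, adjusted p = 0.11), and Cenpa after Ubn2 depletion (0.18, adjusted p = 0.0363) and H2afj between Ubn2 and Ubn1 depletion (0.32, adjusted p = 0.0185) gained it, in edgeR's quasi-likelihood test.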

Other observations

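Histone genes outside the 9 gave the following values. Of 70 clustered histone genes, whose mRNAs mostly lack a poly(A) tail, 40 were tested after Ubn2 depletion. There 23 were called higher and 0 lower, where 18.3% of all genes were called in either direction. The median log2 value was 1.39, against -0.00 for all genes. After Hira depletion 4 of 36 tested were called higher and 1 lower (16.2% of all genes were called). After Ubn1 depletion 0 of 27 were called higher and 2 lower (3.09% of all genes). The filter was run per comparison. Some of the 40 passed it only with the Ubn2-depleted libraries, which tilts that count and median upward. The summed level of all 70 was 266 to 268 CPM after Ubn2 depletion, 145 to 148 in Hira-depleted, 83 to 93.8 in Ubn1-depleted and 92.1 to 104 in control libraries. Germ-line variants were close to absent. H2afb1, H2afb2 and H2afb3 had 0 counts in all 8 libraries, H1foo had at most 7 counts and Hils1 at most 1. H2afy3, which shares a stretch of 1122 bases at 95% identity or more with H2afy2, had 5 to 15 counts per library against 685 to 1556 for H2afy2.

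Genes annotated on the opposite strand of the 9 genes also received counts. Gm44335, which shares 141 exon bases with H2afx, had between 44.3% and 49.1% of the counts of H2afx in every library. Its log2 fold changes were -0.26, -0.49 and 0.24 after Hira, Ubn1 and Ubn2 depletion, beside -0.27, -0.46 and 0.31 for H2afx. Gm44364, which shares 141 bases with H2afj, had between 72.9% and 77.3% of its counts, and a log2 value of -0.33 for Hira depletion beside -0.37 for H2afj. Gm49544, which shares 163 bases with H1f0, had between 37.4% and 46.2% of its counts, and a log2 value of 0.57 for Hira depletion beside 0.53 for H1f0.

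Gm5577 had smaller log2 values than H1fx for Hira depletion. It shares 213 exon bases with H1fx, on the opposite strand, and had 74.4 and 76.5 CPM in controls, 81.9 and 86.4 in Hira-depleted and 55 and 62.9 in Ubn2-depleted libraries. Its log2 value for Hira depletion was 0.14 (adjusted p = 0.177 in edgeR's quasi-likelihood test), beside 0.71 for H1fx, and -0.36 after Ubn2 depletion (adjusted p = 0.00152), beside -0.04 for H1fx. Between Hira and Ubn2 depletion it differed by 0.52 (adjusted p = 0.000262), beside 0.77 for H1fx. Its counts were between 131% and 240% of those of H1fx. Aifm2, which shares 233 bases with H2afy2 on the opposite strand, differed by -0.16 between Hira-depleted and control libraries on the log2 scale (adjusted p = 0.255), beside 0.35 for H2afy2. How reads in the shared stretches were divided between the genes was not tested.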
